A study of Homo sapiens with 6 samples.

Results

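Collagens and the enzymes that modify them were examined in HaCaT cells, an immortalized line of human keratinocytes. The genes were chosen by symbol: collagen chains (all but *COL17A1*), prolyl 4-hydroxylases, prolyl 3-hydroxylases, lysyl hydroxylases, the collagen chaperone HSP47, lysyl oxidases, and the ADAMTS proteases with their ADAMTS-like relatives. Of the 12499 genes in the deposited table, 39 met this rule, 18 of them collagen chains, 12 enzymes or HSP47, and 9 of the ADAMTS family. All 39 passed the expression filter and were tested. The cells carried either a lentivirus with the *ATF7* coding sequence (LV-*ATF7*) or a negative control lentivirus (LV-NC), each for 48 hours, and both groups were then kept in high glucose (25 mM) for 24 hours. Each group had 3 poly(A) RNA-seq libraries, the whole population of infected cells of this single line was sequenced, and no library without lentivirus or without high glucose was part of the comparison. Nothing in the labels says that the replicates were separate cultures, so p-values measure only the spread between these libraries, which may be technical.

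Collagens are trimers of chains with long Gly-X-Y repeats. In the endoplasmic reticulum, prolyl 4-hydroxylases stabilize the triple helix, prolyl 3-hydroxylases and lysyl hydroxylases add further marks, and HSP47 holds the folded trimer until export. Outside the cell, ADAMTS and other proteases trim the propeptides, and lysyl oxidases start the crosslinks that make the matrix insoluble. Keratinocytes are known for type IV collagen of the basement membrane and for type VII collagen, which forms the anchoring fibrils that tie this membrane to the dermis.

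Total counts ran from 16686472 to 20562768 per library. *ATF7* itself went against the labels: it was at 50.6, 46.5 and 52.2 CPM (counts scaled to library size by the TMM method) in replicates 1, 2 and 3 labeled LV-NC and at 21.9, 25.7 and 28.0 CPM in those labeled LV-*ATF7*, a log2 fold change of -0.98 (adjusted p = 1.89e-04, edgeR's quasi-likelihood test). Every direction below therefore rests on labels that this gene contradicts, and the libraries are named by their label. Whether the labels of the groups were exchanged was not tested. The library labeled LV-NC replicate 1 stood apart from replicates 2 and 3 (chi-square per gene of 75.4 and 67.6, against 3.72 between replicates 2 and 3), so values without it are given for the genes whose call or size it changed most. All 10 keratinocyte markers had a row in the table, but *KRT14* was at 0.375 to 12.5 CPM in libraries labeled LV-NC and 1.38 to 1.83 CPM in those labeled LV-*ATF7*, while *KRT5* was at 99.96 to 355.5 CPM and 3215 to 3622 CPM, and the summed keratinocyte markers at 2077 to 2879 CPM and 7479 to 8025 CPM (6 higher, 2 lower). Of 10 fibroblast markers, 3 had a row, and the 2 that could be tested summed to 5.71 to 8.22 CPM and 16.6 to 19.2 CPM, with *DCN* at 0 in LV-NC replicates 2 and 3. *PDGFRA*, *PDGFRB*, *LUM* and *FAP* had no row and were not analysed here. Among 7 endothelial markers, *CDH5* (0.643 to 4.86 CPM and 81.1 to 86.2 CPM) and *VWF* (0.482 to 1.21 CPM and 2.86 to 3.93 CPM) had rows, and *PECAM1*, *KDR*, *TEK*, *ERG* and *CLDN5* were not analysed here. The 3 of 8 macrophage markers with a row summed to 5.57 to 8.13 CPM and 9.38 to 12.7 CPM, but they went different ways. *CD14* was higher (log2 fold change 2.33), *CSF1R* was lower (-2.18) and *ITGAM* was not called (-0.41). *CSF1R* passed the expression filter only through libraries labeled LV-NC, so its call is weak evidence. Of the fibroblast markers, *TWIST2* was called higher. Many of the markers thus differed between the groups, in both directions, while *DCN*, *PERP*, *CDH1* and *ITGAM* were not called. The part of the markers in the results below was not tested. In whole-culture RNA, fewer cells of a type and less RNA per cell cannot be told apart.

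The genes of type IV collagen sit in head-to-head pairs that share a promoter region, so the stretches between their starts are shown before the values. In the RefSeq promoter set (GRCh38.p14), *COL4A1* on the minus strand of chromosome 13 starts at 110307157 and *COL4A2* on the plus strand at 110307284, with 126 bases between the starts. *COL4A6* and *COL4A5* start at 108439458 and 108439838 of chromosome X, with 379 bases between them, and the 250 bases before the *COL4A5* start are given. Capitals mark 2 common promoter motifs on either strand, the CCAAT box, by its own letters, and the GC-rich element known to be bound by Sp1, searched as GGGCGG. A match is a description of the letters only.
COL4A1-COL4A2 gap, chr13:110307158-110307283, plus strand: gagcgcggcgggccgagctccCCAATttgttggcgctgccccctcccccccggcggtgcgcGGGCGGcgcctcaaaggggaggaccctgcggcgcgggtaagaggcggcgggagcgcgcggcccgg
COL4A5 upstream, chrX:108439588-108439837, plus strand: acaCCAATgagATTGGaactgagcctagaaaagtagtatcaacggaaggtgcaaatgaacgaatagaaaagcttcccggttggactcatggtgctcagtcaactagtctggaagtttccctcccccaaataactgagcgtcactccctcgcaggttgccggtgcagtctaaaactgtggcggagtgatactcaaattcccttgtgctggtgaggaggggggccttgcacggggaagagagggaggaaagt

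At an adjusted p under 0.05, 30 of the 39 genes differed between the groups (76.9%), against 67.6% of all 12462 genes tested. By the labels, 18 were higher in LV-*ATF7* (46.2%, against 34.7% of all genes) and 12 were lower (30.8%, against 32.9%). Counting those whose fold change also reached 1.5 left 26 genes (66.7%, against 52.9%), and the libraries of the groups did not overlap for 32 genes (82.1%, against 72.7%). The median log2 fold change was 0.30 over the 39 genes and 0.00 over all genes tested. Most of the shares thus lay a little above those of the whole table, in which a majority of genes differed. Among the genes called, *COL5A3*, *COL20A1* and *ADAMTS15* passed the expression filter only through libraries labeled LV-NC. *LOXL3*, *LOXL4*, *ADAMTS7*, *ADAMTS14* and *COL9A2* passed it only through those labeled LV-*ATF7*, *COL9A2* narrowly so (9 counts in LV-NC replicate 3). A gene kept in this way differs almost by selection, so these calls, which remain in the counts above, are weak evidence. No row of the deposited table had fewer than 51 counts over the 6 libraries. Without LV-NC replicate 1, 37 of the 39 were called, 21 higher and 16 lower, against 80.1% of all genes (39.9% higher and 40.2% lower). The 7 genes that gained a call were *COL5A1*, *COL18A1*, *COL6A1*, *COL9A3*, *P4HA1*, *ADAMTSL4* and *ADAMTSL5*.

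**Figure D1:**
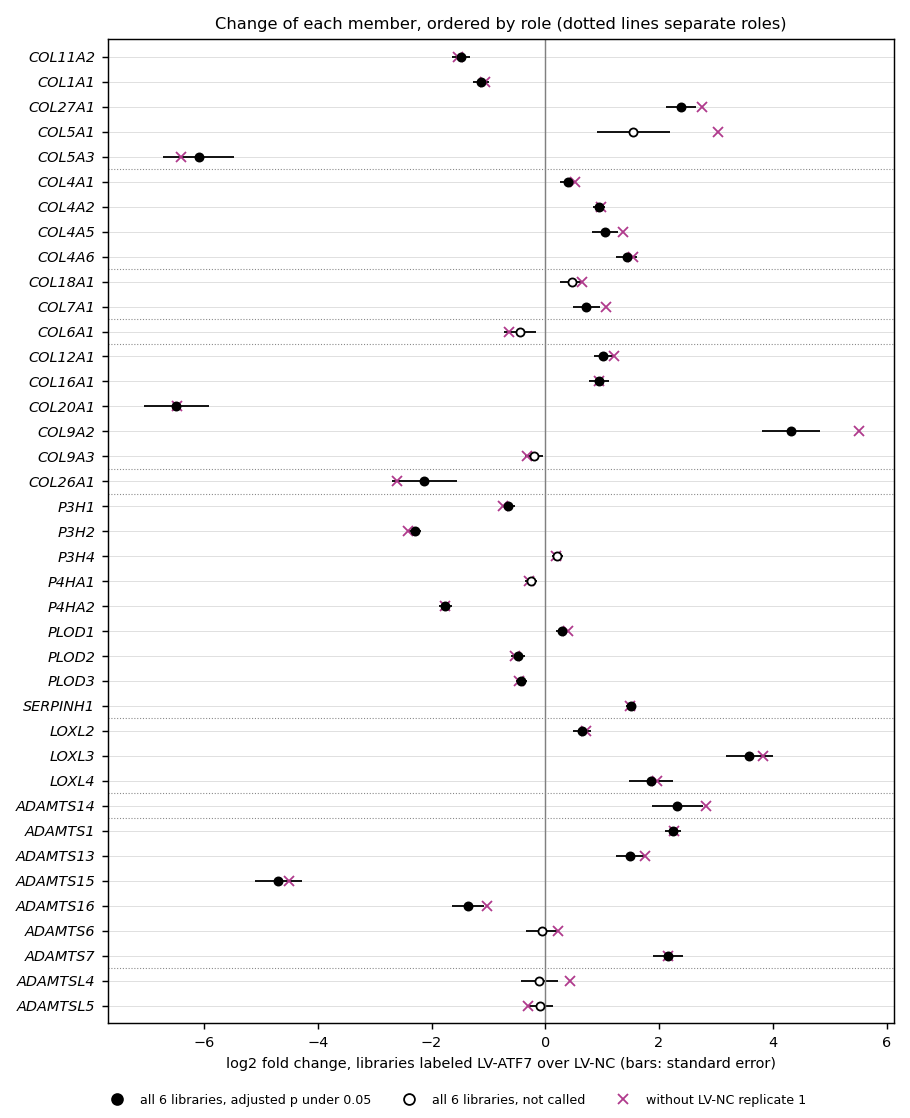
Log2 fold change of each of the 39 genes, libraries labeled LV-*ATF7* over those labeled LV-NC (circles, with bars for the standard error (SE), filled where the adjusted p was under 0.05), and the same without LV-NC replicate 1 (crosses), in order of role. The 4 type IV chains and the 3 lysyl oxidase-like enzymes lie to the right of 0, while *COL20A1*, *COL5A3* and *ADAMTS15* lie farthest to the left.

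A trio of chains made up most of the collagen message. *COL12A1*, *COL7A1* and *COL27A1* together held 67.1% to 74.5% of the CPM summed over the 18 chains in libraries labeled LV-NC and 77.0% to 79.4% in those labeled LV-*ATF7*. That sum was 982.2, 646.1 and 695.1 CPM in LV-NC replicates 1, 2 and 3 and 1459, 1474 and 1510 CPM in the LV-*ATF7*-labeled replicates. The groups did not overlap, LV-NC replicate 1 lay nearest to the other group, and the means were 774.5 ± 181.6 and 1481 ± 26.6 CPM (SD, n = 3 each). Levels per kilobase of exon allow genes to be compared with each other. In libraries labeled LV-NC, *PLOD3* had the highest mean level of the 39 genes (36.3 CPM per kb), followed by *COL12A1* (25.9), *SERPINH1* (17.1) and *P4HA1* (17.0). In those labeled LV-*ATF7* the order was *COL12A1* (52.5 CPM per kb), *SERPINH1* (48.6), *PLOD3* (27.1) and *COL7A1* (26.8). The last pair in each order differed by less than the spread between libraries. The lowest mean levels were those of *ADAMTS14* (0.0379 CPM per kb) and *LOXL3* (0.0453) under the LV-NC label and of *COL20A1* (0.00678) and *COL5A3* (0.0108) under the other.

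The fibrillar collagens, which form the striated fibrils of connective tissue, did not move as a group: of 5 chains, 1 rose, 3 fell and 1 was not called. *COL27A1*, a fibrillar chain known from cartilage, was at 59.96, 28.7 and 32.5 CPM in libraries labeled LV-NC and at 206.9, 205.1 and 216.8 CPM in those labeled LV-*ATF7*. The groups stood far apart, with LV-NC replicate 1 at 1.96 times the mean of its 2 fellow replicates, and the gene rose 5.19-fold (log2 fold change 2.38, SE 0.26, adjusted p = 1.07e-04, edgeR). *COL1A1*, the main chain of type I collagen, was at 41.1, 33.1 and 35.8 CPM and at 15.1, 16.4 and 18.9 CPM. It fell by 1.13 in log2 units (SE 0.14, adjusted p = 1.75e-04), and its usual partner *COL1A2* had no row and was not analysed here. *COL11A2*, a chain of the cartilage collagen type XI, went from 10.3, 10.9 and 11.8 CPM to 4.13, 4.23 and 3.48 CPM, a log2 fold change of -1.48 (SE 0.16, adjusted p = 8.84e-05) with no overlap.

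Of the type V chains, 1 fell and 1 was not called. *COL5A3* was counted 295 times over libraries labeled LV-NC (3.11, 5.92 and 7.18 CPM) and 4 times over those labeled LV-*ATF7* (0.168, 0.0510 and 0 CPM), a ratio of 74.5 with an exact 95% interval from 28.8 to 275.4 that covers counting error only (adjusted p = 7.72e-05, edgeR). *COL5A1*, whose product starts and sets the width of type I fibrils, was at 5.52 CPM in LV-NC replicate 1 but at 0.786 and 0.926 CPM in replicates 2 and 3, and at 5.75, 7.75 and 7.85 CPM in libraries labeled LV-*ATF7*. The single high replicate lay next to the other group, and the gene was not called (log2 fold change 1.55, SE 0.63, adjusted p = 0.0585). Without that replicate it was called, with a log2 fold change of 3.03 (adjusted p = 7.34e-11, edgeR).

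**Figure D2:**
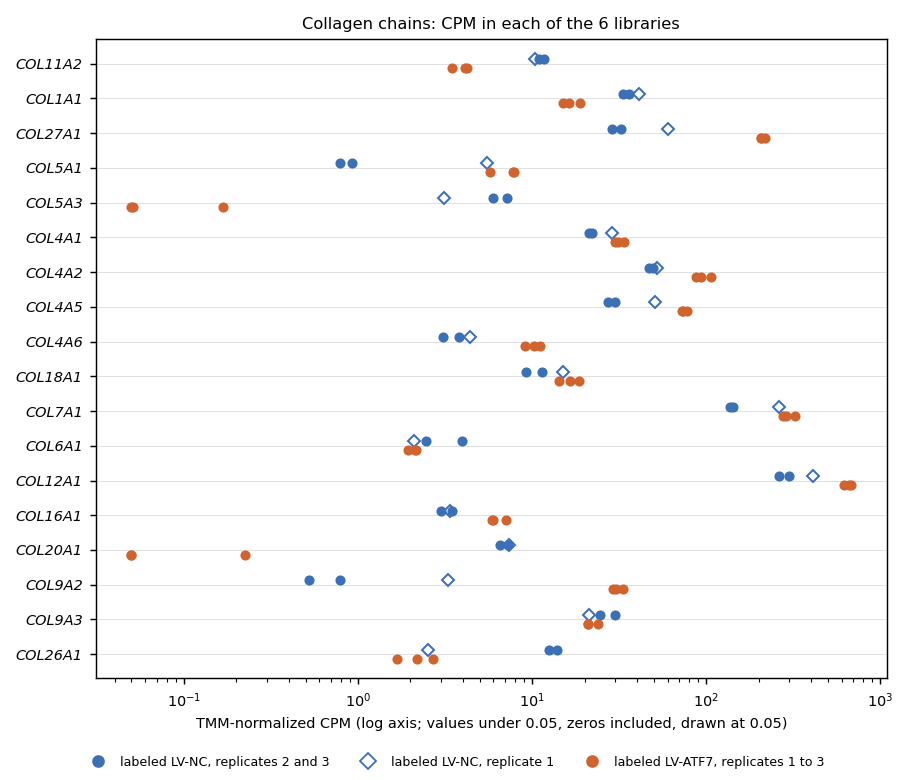
CPM of the 18 collagen chains in each library on a log axis (blue: labeled LV-NC, with replicate 1 as an open diamond; orange: labeled LV-*ATF7*). The open diamond lies between the other blue points and the orange points for most chains, as for *COL27A1* at 59.96 CPM. It lies among the orange points for *COL26A1*, *COL18A1*, *COL6A1* and *COL9A3*.

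All 4 type IV chains were called higher in libraries labeled LV-*ATF7*, as were 34.7% of all genes tested. A call in this direction was thus not particular to the type IV chains. The 3 lysyl oxidase-like genes were also all called higher, but *LOXL3* and *LOXL4* passed the expression filter only through libraries labeled LV-*ATF7*. *COL4A2* was at 52.2, 47.2 and 49.4 CPM and at 87.4, 93.5 and 106.7 CPM. It rose 1.93-fold (log2 fold change 0.95, SE 0.11, adjusted p = 1.16e-04, edgeR). Its head-to-head neighbour *COL4A1*, which encodes the partner chain of the common trimer, was at 28.9, 22.0 and 21.3 CPM and at 29.98, 31.3 and 33.7 CPM. The gap between the groups was narrow, since LV-NC replicate 1 lay just below the lowest library of the other group, and the change was 1.32-fold (log2 fold change 0.40, adjusted p = 0.0374). This call was lost in 8 of 13 alternatives, among them the replicate number as a block (log2 fold change 0.41, adjusted p = 0.0534) and scaling by library size only (0.22, adjusted p = 0.229).

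On chromosome X, *COL4A5* was at 50.8, 30.1 and 27.2 CPM and at 73.8, 72.5 and 77.6 CPM, a rise of 2.07-fold (log2 fold change 1.05, SE 0.22, adjusted p = 0.00329, edgeR). *COL4A6*, its neighbour and partner in the trimers of epithelial basement membranes, was at 4.39, 3.09 and 3.82 CPM and at 9.04, 10.3 and 11.2 CPM. It rose 2.70-fold (log2 fold change 1.43, SE 0.19, adjusted p = 2.51e-04). Neither gene overlapped between groups, and both pairs of neighbours thus had their genes higher in the same group of libraries.

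The balance within a pair was also compared, as the ratio of levels per exon length. For *COL4A1* to *COL4A2* it was 0.724, 0.611 and 0.564 in libraries labeled LV-NC and 0.449, 0.438 and 0.413 in those labeled LV-*ATF7*. Every ratio of the second group lay below every ratio of the first, and the difference of the mean log2 ratios was -0.54 (two-sided exact permutation test, p = 0.10, which is the lowest that 3 libraries against 3 allow; 0.20 after adjustment over 2 pairs). For *COL4A5* to *COL4A6* the ratios were 9.05, 7.61 and 5.56 against 6.38, 5.51 and 5.44. These overlapped, with a difference of -0.33 (two-sided exact permutation test, p = 0.20). Of the 8 pairs of chains listed, the other 6 could not be compared, 5 because a chain had no row and *COL9A2* to *COL9A3* because *COL9A2* had fewer than 10 counts in a library.

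*COL7A1*, the anchoring fibril collagen, was at 262.5 CPM in LV-NC replicate 1 and at 141.6 and 137.1 CPM in replicates 2 and 3, against 287.4, 276.7 and 325.5 CPM in libraries labeled LV-*ATF7*. The groups did not overlap, but LV-NC replicate 1 was much closer to the other group than to its own. The rise was 1.64-fold (log2 fold change 0.72, SE 0.24, adjusted p = 0.0293, edgeR) and 1.07 on the log2 scale without that replicate (adjusted p = 1.74e-12). The call was lost without any single library other than LV-NC replicate 1 (adjusted p from 0.0538 to 0.114). *COL18A1*, a basement membrane collagen whose C-terminal fragment is endostatin, was not called (15.0, 9.28 and 11.4 CPM against 14.2, 16.4 and 18.6 CPM, log2 fold change 0.46, adjusted p = 0.0704) but passed the threshold with LV-NC replicate 1 left out (0.65, adjusted p = 1.30e-04). It shares 16.4% of its exon bases with *SLC19A1* on the opposite strand, and whether the counting used strand is not given in the sources used here.

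Of 5 fibril-associated collagens, which coat fibrils rather than form them, 3 rose, 1 fell and 1 was not called. *COL12A1*, the most abundant chain, was at 408.7, 263.1 and 298.2 CPM and at 663.2, 680.3 and 621.1 CPM. It rose 2.03-fold with no overlap (log2 fold change 1.02, SE 0.16, adjusted p = 7.90e-04, edgeR). *COL16A1*, found near the dermal-epidermal junction, rose from 3.37, 3.46 and 3.01 CPM to 5.97, 5.86 and 7.08 CPM (log2 fold change 0.94, adjusted p = 0.00166).

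The type IX chains are partners in cartilage collagen. *COL9A2* was found at 3.27, 0.786 and 0.521 CPM where LV-NC was the label, against 30.1, 29.3 and 33.2 CPM in those labeled LV-*ATF7*, a rise of 20.01-fold (log2 fold change 4.32, SE 0.52, adjusted p = 1.68e-04, edgeR) and of 5.51 on the log2 scale without LV-NC replicate 1. *COL9A2* passed the expression filter only through libraries labeled LV-*ATF7*, so this call is weak evidence. *COL9A3* was at 21.2, 24.6 and 29.9 CPM and at 20.99, 20.9 and 23.9 CPM, with overlapping groups and no call (log2 fold change -0.20, adjusted p = 0.267). It was called lower without LV-NC replicate 1 (-0.33, adjusted p = 0.00785), with library size scaling (-0.36, adjusted p = 0.0462) and in limma voom (-0.36, adjusted p = 0.00124). *COL20A1*, a little-studied member, was counted 388 times over libraries labeled LV-NC (7.34, 6.55 and 7.29 CPM) and 4 times over the others, all 4 in LV-*ATF7* replicate 1, a ratio of 98.0 (exact 95% interval 37.98 to 361.6, counting error only; adjusted p = 3.51e-05, edgeR).

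Single members stood for the remaining chain classes. *COL6A1*, a chain of the beaded filaments around cells, was near 2 CPM in most libraries (2.09, 2.46 and 3.94 against 2.12, 1.94 and 2.16 CPM) and was not called (log2 fold change -0.44, adjusted p = 0.190), but was lower without LV-NC replicate 1 (-0.64, adjusted p = 0.0226). *COL26A1* was at 2.52 CPM in LV-NC replicate 1 and at 12.4 and 13.8 CPM in replicates 2 and 3, against 2.18, 1.68 and 2.71 CPM in libraries labeled LV-*ATF7*. Replicate 1 lay inside the range of the other group. *COL26A1* fell by 2.13 in log2 units (SE 0.57, adjusted p = 0.0110, edgeR) and showed a log2 fold change of -2.61 without replicate 1.

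The placement of LV-NC replicate 1 was then counted over all 39 genes. It lay outside replicates 2 and 3 on the side of the LV-*ATF7*-labeled libraries for 29 genes (74.4%, against 55.6% of all genes tested) and for 15 of the 18 chains (83.3%). For 5 genes it lay outside on the other side. With 0.5 added to each CPM value before taking logs, it was more than 1 log2 unit from the mean of replicates 2 and 3 for 4 genes (10.3%, against 6.12% of all genes), namely *COL5A1* (6.44 times higher), *COL9A2* (4.996 times higher), *COL26A1* (5.22 times lower) and *ADAMTSL4* (2.41 times higher), where the ratios are of CPM with nothing added. By that plain ratio, *ADAMTS14* (2.31 times higher) and *COL5A3* (2.11 times lower) also differed by more than 1 log2 unit. What set this library apart was not tested.

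Among the proteins that act in the endoplasmic reticulum, 2 rose, 5 fell and 2 were not called, and their summed level differed little between the groups (768.9 ± 13.2 CPM and 758.5 ± 32.2 CPM, SD, n = 3 each). *SERPINH1*, which encodes HSP47, was at 107.4, 104.5 and 109.3 CPM and at 289.4, 293.7 and 331.9 CPM. Replicates of both groups lay close together, and the gene rose 2.85-fold (log2 fold change 1.51, SE 0.092, adjusted p = 6.57e-06, edgeR). In GENCODE release 29 it lies on the plus strand of chromosome 11 of GRCh38, from 75562056 to 75572783, and shares no exon base with another gene.

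The prolyl 4-hydroxylase alpha subunits, which carry the catalytic site, had 2 genes in the table. *P4HA2* (chromosome 5, minus strand, 132191838 to 132295315) was at 88.3, 83.6 and 85.8 CPM and at 27.97, 22.3 and 26.1 CPM. It fell by 1.76 in log2 units (SE 0.11, adjusted p = 7.52e-06, edgeR), or 3.38-fold lower. *P4HA2* shares 6.4% of its exon bases with *P4HA2-AS1* on the opposite strand. *P4HA1* was at 51.4, 54.99 and 51.1 CPM and at 48.4, 43.9 and 40.3 CPM. The groups did not overlap but lay close, and it was not called (log2 fold change -0.25, adjusted p = 0.0596). In 5 of 13 alternatives it was called lower, among them the fit without LV-NC replicate 1 (-0.28, adjusted p = 0.00855) and DESeq2 (-0.27, adjusted p = 0.0481). Per exon length, *P4HA2* made up 35.6% to 38.5% of the summed level of these genes in libraries labeled LV-NC and 15.6% to 19.1% in the others. *P4HB*, the shared second subunit, was not called (466.5 ± 14.9 CPM and 446.3 ± 30.9 CPM, SD, n = 3 each, adjusted p = 0.566).

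Of the prolyl 3-hydroxylases, *P3H2*, known to act on basement membrane collagen, was at 75.3, 92.4 and 94.3 CPM and at 16.6, 18.4 and 18.1 CPM. Every library labeled LV-*ATF7* was far below every other library, and the gene fell by 2.30 in log2 units (SE 0.12, adjusted p = 3.54e-06, edgeR), or 4.94-fold lower. Its position is 189956728 to 190122437 of chromosome 3, minus strand (GRCh38). *P3H1*, the enzyme of the complex that marks fibrillar collagen, fell from 32.9, 37.4 and 38.9 CPM to 21.1, 23.0 and 25.3 CPM (log2 fold change -0.65, SE 0.12, adjusted p = 0.00161). *P3H4*, an inactive relative, was not called (25.1 ± 0.358 CPM and 28.95 ± 1.51 CPM, adjusted p = 0.103). The share of *P3H2* in the summed level of the 3 genes per exon length went from between 53.8% and 57.6% to between 21.3% and 23.1%, and that of *P3H4* from between 22.7% and 26.8% to between 52.98% and 55.2%.

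**Figure D3:**
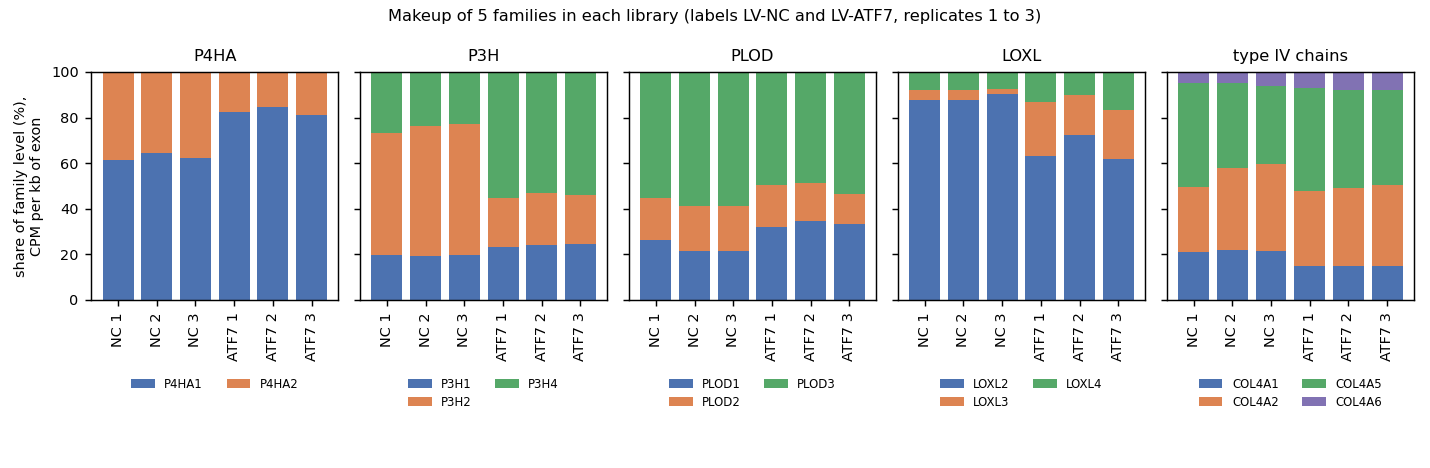
Share of each gene in the summed level of its family (CPM per kilobase of exon, as percent) in each of the 6 libraries. *P4HA2* and *P3H2* take smaller shares in libraries labeled LV-*ATF7*, at most 19.1% and 23.1%, while *LOXL3* takes a larger one.

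The lysyl hydroxylases, whose products carry the crosslinks and sugars of collagen, changed less. *PLOD3*, the most abundant, was at 197.8, 213.6 and 205.3 CPM and at 149.8, 143.0 and 168.1 CPM, a log2 fold change of -0.42 (SE 0.094, adjusted p = 0.00445, edgeR). It shares 7.6% of its exon bases with *ZNHIT1* on the opposite strand. *PLOD2*, which modifies the telopeptides, went from 88.98, 95.8 and 92.5 CPM to 74.4, 67.2 and 56.6 CPM (log2 fold change -0.48, adjusted p = 0.00632). *PLOD1*, which acts on the helix, was at 87.5, 72.9 and 69.5 CPM and at 89.9, 95.2 and 98.2 CPM. Its groups nearly met at LV-NC replicate 1, and its rise of 0.30 (adjusted p = 0.0408) was lost in 9 of 13 alternatives, among them the replicate number as a block (0.31, adjusted p = 0.0628) and DESeq2 (0.28, adjusted p = 0.0617).

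The lysyl oxidase-like genes were all higher in libraries labeled LV-*ATF7*, at low levels. *LOXL2*, the most abundant, was at 7.28, 5.56 and 6.54 CPM and at 10.8, 9.48 and 9.90 CPM, a rise of 1.56-fold (log2 fold change 0.64, SE 0.16, adjusted p = 0.00757, edgeR). *LOXL3* was counted 11 times over libraries labeled LV-NC (0.268, 0.210 and 0.116 CPM) and 137 times over the others (3.07, 1.73 and 2.65 CPM), a ratio of 12.3 (exact 95% interval 6.68 to 25.3; adjusted p = 1.29e-04, edgeR). *LOXL4* was counted 20 and 74 times, a ratio of 3.66 (interval 2.21 to 6.34; adjusted p = 0.00321, edgeR). *LOXL3* shares 19.3% of its exon bases with *HTRA2* and *DOK1* on the opposite strand. *LOX*, the founding member, and *LOXL1* had no row and were not analysed here.

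**Figure D4:**
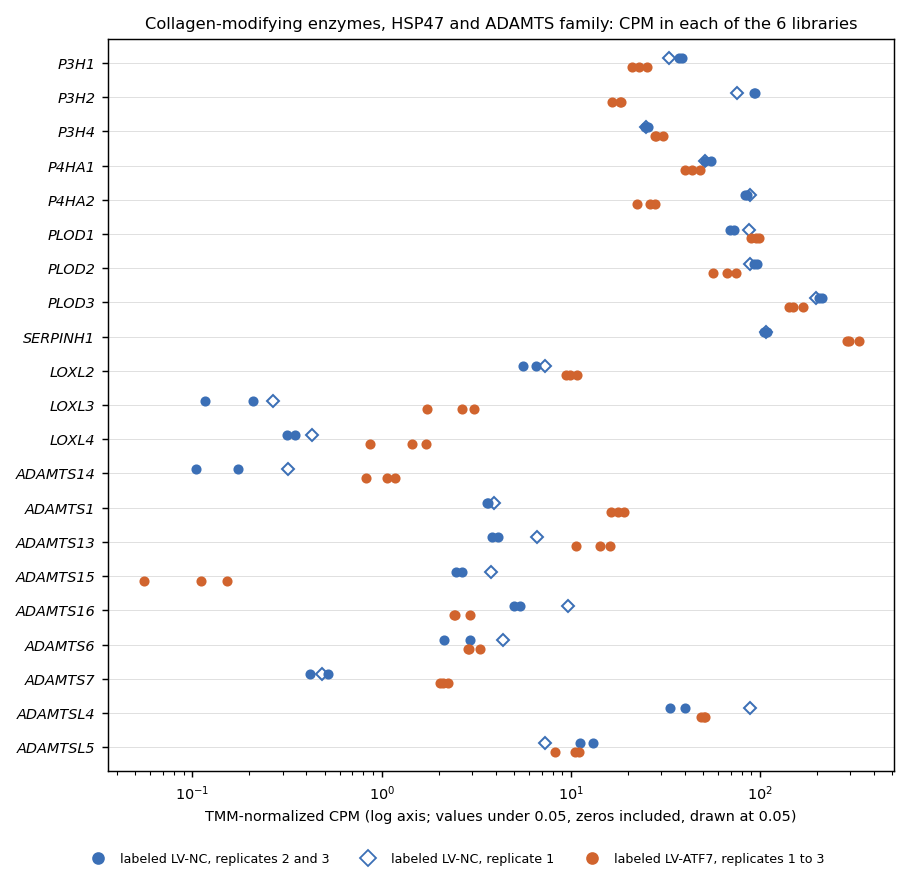
CPM of the 12 enzymes and HSP47 and of the 9 ADAMTS family genes in each library on a log axis (blue: labeled LV-NC, with replicate 1 as an open diamond; orange: labeled LV-*ATF7*). *SERPINH1* lies between 289.4 and 331.9 CPM in the LV-*ATF7*-labeled libraries, above all LV-NC-labeled ones, and *P3H2* between 16.6 and 18.4 CPM, below them.

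In the ADAMTS family, 4 of 9 genes rose, 2 fell and 3 were not called. *ADAMTS14*, a procollagen N-proteinase that removes the amino-terminal propeptide, was barely detected, with 11 counts over libraries labeled LV-NC and 57 over the others (ratio 5.13, exact 95% interval 2.66 to 10.8; adjusted p = 0.00213, edgeR). *ADAMTS2* and *ADAMTS3*, the other enzymes of this activity, had no row and were not analysed here. *ADAMTS1*, a protease of proteoglycans, was at 3.91, 3.67 and 3.59 CPM and at 19.1, 17.8 and 16.3 CPM. The replicates were tight and far apart between groups, and it rose 4.76-fold (log2 fold change 2.25, SE 0.14, adjusted p = 7.85e-06, edgeR).

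*ADAMTS13*, the protease of von Willebrand factor, rose from 6.64, 4.14 and 3.82 CPM to 10.7, 14.3 and 16.1 CPM (log2 fold change 1.49, SE 0.25, adjusted p = 0.00112, edgeR). *ADAMTS7*, which cleaves the cartilage protein COMP, was counted 26 and 119 times (ratio 4.53, exact 95% interval 2.94 to 7.22; adjusted p = 1.87e-04, edgeR). In the other direction, *ADAMTS15* was counted 164 times in libraries labeled LV-NC and 6 times in the others (ratio 27.6, exact 95% interval 12.4 to 76.4; adjusted p = 3.45e-05, edgeR). *ADAMTS16* fell from 9.64, 5.40 and 4.98 CPM to 2.40, 2.45 and 2.93 CPM (log2 fold change -1.36, SE 0.29, adjusted p = 0.00343). For *ADAMTS16*, LV-NC replicate 1 was the library farthest from the other group, unlike for most genes described here.

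*ADAMTS6* was not called (log2 fold change -0.06, adjusted p = 0.850). Neither were the ADAMTS-like genes, whose products bind fibrillin microfibrils or matrix without protease activity. *ADAMTSL4* was at 88.6 CPM in LV-NC replicate 1, at 33.5 and 40.0 CPM in replicates 2 and 3, and at 48.9, 51.2 and 50.5 CPM in libraries labeled LV-*ATF7*. Its direction turned with that replicate, from a log2 fold change of -0.11 (adjusted p = 0.789, edgeR) to 0.43 without it (adjusted p = 1.85e-04). Antisense genes cover 14.4% of its exon bases. *ADAMTSL5* was at 7.34, 13.1 and 11.2 CPM and at 8.21, 10.6 and 11 CPM, with overlapping groups (log2 fold change -0.09, adjusted p = 0.756; -0.31 and 0.0488 without LV-NC replicate 1).

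Other genes of collagen folding, export, processing and binding, taken from a list of 35, were tested for 27 members: 9 rose, 8 fell and 10 were not called, with a median log2 fold change of 0.05. Among all genes tested 34.7% were higher and 32.9% lower, close to the shares in this list. The counts include *SPARC*, *COLGALT2* and *FKBP10*, which passed the expression filter only through libraries labeled LV-*ATF7*. They also include *DDR2* and *ITGA10*, which passed it only through those labeled LV-NC. Such calls are weak evidence. *CRTAP*, the partner of the *P3H1* product in the fibrillar complex, rose 3.49-fold, from 78.9 ± 5.06 to 275.6 ± 20.3 CPM (SD, n = 3 each; adjusted p = 4.14e-06, edgeR), whereas *PPIB*, the cyclophilin of that complex, fell by 0.51 on the log2 scale (adjusted p = 0.00506). *TMEM38B*, an ion channel of the endoplasmic reticulum needed for collagen secretion, fell by 2.74 (76.4 ± 8.31 to 11.5 ± 2.13 CPM, adjusted p = 5.40e-06). *PCOLCE*, which enhances removal of the carboxy-terminal propeptide, rose 4.52-fold (3.82 ± 0.108 to 17.3 ± 0.0428 CPM, adjusted p = 6.49e-06), and *BMP1*, the protease it assists, rose 2.21-fold (adjusted p = 1.03e-04).

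Among collagen receptors, *DDR1* rose 6.15-fold, from 505.7, 301.5 and 314.4 CPM to 2183, 2198 and 2511 CPM (log2 fold change 2.62, adjusted p = 2.41e-05, edgeR). *DDR2*, the related receptor, fell by 2.21 in log2 units at a low level (4.44, 1.31 and 1.51 CPM to 0.335, 0.765 and 0.442 CPM, adjusted p = 0.0102). LV-NC replicate 1 was at 3.16 times the mean of replicates 2 and 3 for *DDR2*. Without it the log2 fold change was -1.44 (adjusted p = 0.00186, edgeR). The integrin chain *ITGA2* rose 1.62-fold (237.0 ± 21.8 to 384.0 ± 43.2 CPM, SD, n = 3 each; adjusted p = 0.00107), while *ITGA10* fell by 1.28 in log2 units (adjusted p = 0.0249), and *ITGA1* (log2 fold change -0.29, adjusted p = 0.219) and the endocytic receptor *MRC2* (0.05, adjusted p = 0.932) were not called. Without LV-NC replicate 1, *MRC2* was called higher (0.77, adjusted p = 0.0341, edgeR). *DDR2* and *ITGA10* passed the expression filter only through libraries labeled LV-NC, so their calls are weak evidence. *SPARC*, a matrix protein that binds collagen, was at 2.20, 0.315 and 0.405 CPM and at 9.99, 10.6 and 9.07 CPM, a log2 fold change of 3.33 (adjusted p = 9.70e-04) that became 4.74 without LV-NC replicate 1. *SPARC* passed the expression filter only through libraries labeled LV-*ATF7*, so its call is weak evidence. *P4HB*, *PPIB*, *BMP1*, *DDR2*, *ITGA1*, *ITGA2*, *ITGA10* and *MRC2* were named after their values were seen.

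The promoter windows of RefSeq (250 bases before to 50 after a start) were searched on both strands for 30 of the 39 genes that matched by symbol. *ADAMTS1*, *ADAMTS15*, *ADAMTS16*, *COL1A1*, *COL20A1*, *COL6A1*, *COL9A3*, *LOXL2* and *P3H4* did not match. The cAMP response element TGACGTCA, the kind of site that ATF7 is known to bind, was present for *ADAMTS6* (1 of 30, against 2.25% of all genes with a window), and the AP-1 site TGACTCA for none (against 6.05%). The core hypoxia motif ACGTG was present for 8, *ADAMTS6*, *COL11A2*, *COL12A1*, *COL5A1*, *P3H2*, *P4HA1*, *PLOD2* and *SERPINH1*, against 24.9% of all genes. CCAAT was present for 10 of 30, against 39.7%, and GGGCGG for 25 of 30, against 48.3%. All 4 type IV chains had CCAAT, but the windows of neighbours overlap, and the CCAAT letters printed above lie in both windows of each pair. TATAAA was found for 3 genes, *COL18A1*, *COL7A1* and *P4HA1*, against 3819 of the 27305 genes with a window. The percents are over all 27305 genes, whether or not they were in the deposited table. The members were not compared with expressed genes only, so no enrichment can be read from these numbers.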

How the data were processed

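Messenger RNA was enriched with oligo(dT) beads and sequenced, low-quality reads were removed, and the table deposited by the authors holds raw counts per gene. The submitters' processing notes name GRCh38, while aligner, counting program, annotation and strandedness are not given in the sources used here. The authors also deposited FPKM, which was not used. If it was scaled to the summed counts of the deposited table, the length behind it was 2.67 times the exon length (median over genes). Scaling to another total would give another length, and this was not tested. The authors' deposited fold change (a ratio), log2 fold change and p-value columns were not used.

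Counts of all 12499 genes were filtered (filterByExpr, 37 genes removed), TMM-scaled and analysed in edgeR 4.0.16 (quasi-likelihood, glmQLFit, glmQLFTest, R 4.3.3) with Benjamini-Hochberg adjustment over 12462 genes and a threshold of 0.05. A standard error is the log2 fold change divided by the square root of F. Exon lengths and positions are from GENCODE release 29, matched by identifier. Intervals of count ratios are exact binomial, for members with a mean under 10 counts in a group. Alternatives used DESeq2 1.42.0 and limma 3.58.1 (voom), other scalings and filters, the replicate number as a block, and each library left out in turn. The pipeline was tested on simulated counts of 12462 genes. It called 73 of 100 genes changed by 1 log2 unit, 98 of 100 changed by 2, and 13 unchanged genes. No outlying library was simulated, unlike in these data. Scripts used Python 3.11.15.

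Members and lists were chosen with earlier results of these data known. All 39 members are described. By rule, the genes given most fully were, per role, the most abundant and up to 4 with the largest called change (mean of at least 50 counts), 5 of the collagen processing list, and *ATF7*. Deviations from group means were hardly correlated between libraries of equal replicate number (0.058, -0.021 and 0.065). With 3 libraries per group and LV-NC replicate 1 apart, this cannot decide whether equal numbers marked paired libraries.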

Additional observations from a re-analysis of the deposited data

How the results depend on the processing

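Of the 30 genes called, 27 kept their call and direction in every alternative run for them (12 or 13 each); *COL4A1*, *COL7A1* and *PLOD1* kept their direction but not always their call. With at least 10 counts in every library, 20 of the genes were called, with 11 in place of 18 higher in LV-*ATF7*. Over all genes, 7713 were then called in place of 8429. This setting tests fewer genes, so these numbers are not shares of the same total. It left out *COL9A2*, *COL5A3*, *COL20A1*, *ADAMTS15*, *ADAMTS14*, *ADAMTS7*, *LOXL3* and *LOXL4*, all called in the main fit. *COL4A1* and *PLOD1* lost their call in it. Across fits that left out a library, 27 to 37 of the 39 genes were called (37 without LV-NC replicate 1), with 15 to 21 higher and 12 to 16 lower. Over all genes, 7290 to 10011 were called. In the collagen processing list, 14 to 21 were called, with 8 to 12 higher and 5 to 9 lower. The lowest of these lower counts came without LV-*ATF7* replicate 3, and the cause was not tested.

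Under scaling to library size alone, the median over all genes shifted by -0.16 (log2) and the summed endoplasmic reticulum proteins went from -0.02 to -0.18, and calls of that size, such as *PLOD1*, cannot be separated from the scaling. It gave 29 calls, 15 higher and 14 lower, against 18 and 12. Blocking on replicate number (an unsupported pairing) gave 29 calls, 17 higher and 12 lower, and besides *COL4A1* and *PLOD1* only *COL5A1* changed its call (log2 fold change 1.95, adjusted p = 0.0348). *ADAMTSL4*, not called, was at 0.03 under the block (adjusted p = 0.928), 0.43 without LV-NC replicate 1 and 0.42 in limma voom with sample quality weights (adjusted p = 3.00e-04), against -0.11. *ADAMTS6* was at 0.22 and 0.25 in the last 2 settings, and *ADAMTSL5* at 0.07 without LV-NC replicate 2 and 0.03 without LV-*ATF7* replicate 1. Leaving out single libraries gave ranges of -0.40 to 0.43, -0.32 to 0.22 and -0.31 to 0.07 for *ADAMTSL4*, *ADAMTS6* and *ADAMTSL5*. The differences of chain balance stayed between -0.62 and -0.44 and between -0.53 and -0.17. Depth limits *COL5A3*, *COL20A1*, *ADAMTS15*, *ADAMTS14*, *ADAMTS7*, *LOXL3* and *LOXL4*, which had a mean under 10 counts in a group. These genes passed the expression filter through the other group alone, and their p-values and intervals do not account for this. The p-value of *COL9A2*, which passed it only through libraries labeled LV-*ATF7*, does not account for this either.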
